A study of Mus musculus with 18 samples.

Results

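The 10 genes described here are regulators and markers of the adipocyte, the fat-storing cell, and they were found by name among the 27179 genes of the normalized count table. Of these, 6 encode transcription factors (Pparg, Cebpa, Cebpb, Cebpd, Klf15 and Zfp423) and 4 are markers of the differentiated fat cell (Fabp4, Plin1, Adipoq and Lpl). Their mRNA was measured by RNA sequencing in 18 cultures of primary mouse mesenchymal stem cells (MSCs), stromal cells of flushed bone marrow that attach to the culture dish. Young MSCs (n = 6) came from C57BL6 male mice of 6 weeks and old MSCs (n = 6) from C57BL6 male mice of 18 to 24 months, and both were cultured for 7 days without treatment. Rejuvenated old MSCs (n = 6) were old MSCs from the same kind of donor, plated at 100000 cells per well, that spent these 7 days across a 0.4 µm Transwell membrane from young MSCs, so that soluble factors could pass but cells could not. The labels name no adipogenic induction for any library. The labels and the study's methods give different expansion media, and hydrocortisone, a glucocorticoid that promotes adipogenesis, is listed only in the latter, so its presence in these cultures is not known. The labels call the 6 libraries of a group biological replicates but do not say whether they came from separate animals, so each p-value below measures only the spread between these libraries. Old MSCs facing other old MSCs were not analysed here, so the effect of a facing cell layer and that of its age cannot be told apart.

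Adipogenesis is a cascade of transcription factors. C/EBPβ and C/EBPδ are switched on early by glucocorticoid and cAMP signals and induce PPARγ and C/EBPα, which maintain each other and turn on the genes of lipid uptake, lipid storage and adipokine secretion. In bone marrow the same factors are also active in the stromal cells that secrete CXCL12 and stem cell factor, which can express adiponectin without holding a fat droplet.

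Each library held 22936251 to 29559194 reads on genes, and the deepest had 1.29 times the reads of the shallowest. Values are normalized counts, the reads of a gene divided by a size factor of its library. All 10 genes reached the limit for testing, a mean of 10 normalized counts over the libraries, as did 14353 genes in all. Differences were tested with limma on log2(normalized count + 1) with the 3 groups in one fit, and a gene was called when its p, adjusted by the Benjamini-Hochberg method over all genes tested, was under 0.05. Rejuvenated old replicate 1 stood apart from its group, with 298 normalized counts of Dlk1 against 19.3 to 25.5 in the other rejuvenated old libraries, 6.73 to 16.1 in old MSCs and 11489 to 12726 in young MSCs. The libraries are bulk RNA, in which fewer cells of a type and less RNA per cell cannot be told apart.

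Pparg, Cebpa, Fabp4, Plin1 and Adipoq were far higher in old than in young MSCs, while Lpl differed less and the early factors Cebpb and Cebpd were lower in old MSCs. Expression of 8 of the 10 genes was lower in young than in old MSCs and that of 2 (Cebpb and Cebpd) was higher, against 44.1% lower and 41.6% higher of all genes tested. The 6 young and 6 old libraries did not overlap for any of the 10. The differences were large for C/EBPα (27.9-fold), PPARγ (13.1-fold) and the fatty acid carrier FABP4 (31.4-fold), while adiponectin and perilipin 1 mRNA were at the detection floor in young MSCs. In all, 85.7% of genes tested were called in this comparison and 73.9% had groups that did not overlap, so the number of calls among the 10 was near the background. Their median log2 fold change, young against old, was -3.17, against -0.02 over all genes tested. With an added limit of 1 on the absolute log2 fold change 8 of the 10 were called (Cebpd and Lpl were not), against 31.9% of all genes tested. The counts were 8 and 2 also without rejuvenated old replicate 1. Markers of macrophages, which also make PPARγ, C/EBPα, C/EBPβ, FABP4 and lipoprotein lipase, moved with this comparison. Of 15 such markers, 14 were lower and 1 (Aif1) higher in young than in old MSCs. Their summed normalized counts were 965 to 1085 in young and 15546 to 19258 in old MSCs. Lyz2 alone had means of 173 in young and 10154 in old MSCs. The part of these markers in the differences of the 10 genes was not tested.

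After co-culture with young MSCs the level of most of these genes lay near that of old MSCs or above it. Compared with old MSCs, 7 of the 10 genes were called higher (Pparg, Cebpa, Cebpb, Cebpd, Klf15, Fabp4 and Lpl), 1 was called lower (Plin1), and Zfp423 and Adipoq were not called. Over all genes tested, 41.6% were called, with 21.0% higher and 20.6% lower. Groups did not overlap for 6 of the 10 genes, against 22.0% of all genes tested. The changes were small beside those between young and old MSCs, with a median log2 fold change of 0.25 against 0.01 over all genes tested, and none of the 10 passed the limit of 1, against 2.34% of all genes tested. Without rejuvenated old replicate 1 the same 7 genes were called higher and none lower, since Plin1 lost its call. This comparison and the preceding one both use the old libraries, so the values of each are given side by side and not combined.

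**Figure D1:**
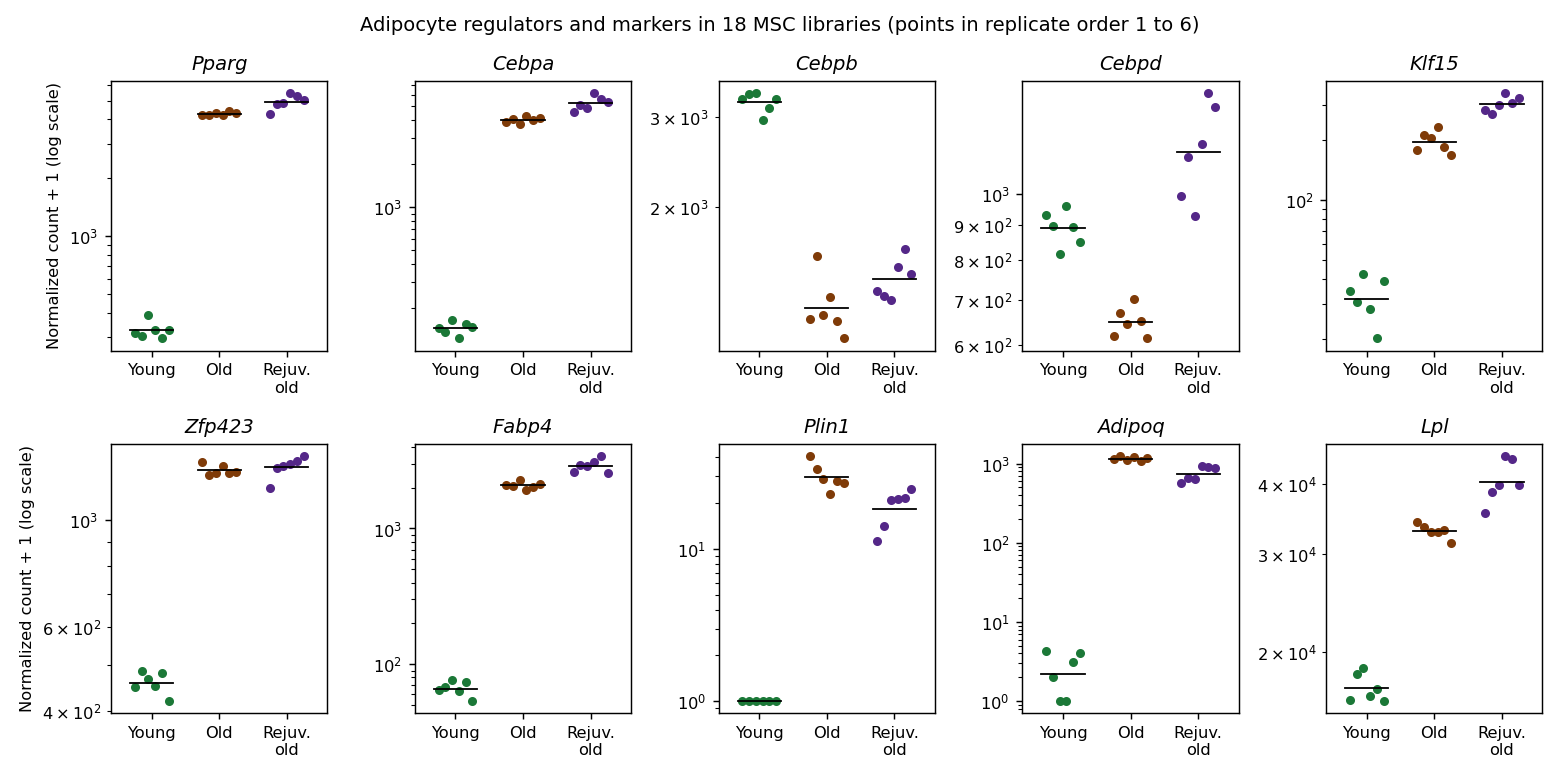
Normalized count + 1 on a log scale for each gene (panels) in the young, old and rejuvenated old libraries (points in replicate order, horizontal line the group mean of the log values). Young points lie far below old points for Pparg, Cebpa, Fabp4 and Adipoq and above them for Cebpb. All 6 young libraries of Plin1 have a count of 0 and are drawn at 1.

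Pparg (gene number 19016), on chromosome 6 of GRCm38 from 115360879 to 115490404, encodes PPARγ, the nuclear receptor that is required for adipogenesis. Normalized counts were 295 at the lowest, 321 at the median and 391 at the highest in young MSCs, 4203, 4257 and 4389 in old MSCs, and 4268, 4945 and 5446 in rejuvenated old MSCs. Young libraries lay apart from all others, while the lowest rejuvenated old library, replicate 1, lay within the old range and the other 5 above it. Mean expression was 326 ± 34.1 (SD, n = 6) for young MSCs, 4269 ± 71.2 (SD, n = 6) for old MSCs and 4948 ± 409 (SD, n = 6) for rejuvenated old MSCs. On the log2 scale the change was -3.71 (SE 0.06, adjusted p = 2.21e-24) for young against old MSCs and 0.21 (SE 0.06, adjusted p = 0.00517) for rejuvenated old against old MSCs. Young against rejuvenated old MSCs gave -3.92, a 15.1-fold difference.

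Cebpa (gene number 12606), on chromosome 7 from 35119293 to 35121928, encodes C/EBPα, the partner of PPARγ that also confers insulin sensitivity on the fat cell. Its normalized counts ran from 121 through a median of 145 to 163 in young MSCs, from 3756 through 4057 to 4296 in old MSCs, and from 4582 through 5219 to 6151 in rejuvenated old MSCs. No group overlapped another. Mean expression was 144 ± 14.6 (SD, n = 6), 4039 ± 190 (SD, n = 6) and 5271 ± 563 (SD, n = 6) in this order. Young against old MSCs gave a log2 fold change of -4.80 (SE 0.07, adjusted p = 3.38e-25), although the median of tested genes on chromosome 7 was 0.61 in this comparison. Rejuvenated old against old MSCs gave 0.38 (SE 0.07, adjusted p = 8.05e-05), a 1.30-fold difference.

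The 250 bases upstream of a start site of both master regulators and of both genes that were at the floor in young MSCs are shown because all 4 genes were lower in young than in old MSCs. The sequences are from RefSeq on GRCm38.p6, 5′ to 3′ on the strand of the gene, and capitals mark matches to the C/EBP-like motif TTGCNNAA on either strand. They lie at chr6:115421816-115422065 (plus strand, an inner start site of Pparg), chr7:35119043-35119292 (plus strand), chr16:23146286-23146535 (plus strand) and chr7:79732777-79733026 (minus strand, an inner start site of Plin1). The Pparg stretch thus lies within its gene as positioned by RefSeq, and the Plin1 stretch lies partly within its own. Pparg has 3 such stretches in RefSeq, and the one shown was chosen because it alone held matches.
Pparg: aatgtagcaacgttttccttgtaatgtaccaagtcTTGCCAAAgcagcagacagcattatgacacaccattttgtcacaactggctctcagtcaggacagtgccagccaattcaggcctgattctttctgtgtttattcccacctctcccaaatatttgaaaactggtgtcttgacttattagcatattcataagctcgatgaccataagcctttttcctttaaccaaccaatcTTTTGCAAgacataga
Cebpa: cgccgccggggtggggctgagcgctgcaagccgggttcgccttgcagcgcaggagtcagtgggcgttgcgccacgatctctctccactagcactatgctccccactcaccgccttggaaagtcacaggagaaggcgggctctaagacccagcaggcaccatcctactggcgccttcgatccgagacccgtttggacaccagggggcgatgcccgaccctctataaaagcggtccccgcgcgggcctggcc
Adipoq: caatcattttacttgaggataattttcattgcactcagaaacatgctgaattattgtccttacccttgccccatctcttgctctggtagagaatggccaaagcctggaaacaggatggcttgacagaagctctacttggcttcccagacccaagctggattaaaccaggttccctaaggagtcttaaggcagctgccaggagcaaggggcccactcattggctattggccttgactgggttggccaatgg
Plin1: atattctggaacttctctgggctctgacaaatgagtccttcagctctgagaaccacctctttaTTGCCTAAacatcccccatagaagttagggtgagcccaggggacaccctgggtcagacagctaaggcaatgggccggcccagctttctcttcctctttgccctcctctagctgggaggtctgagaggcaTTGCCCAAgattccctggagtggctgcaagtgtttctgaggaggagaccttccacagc
The stretch above the Cebpa start was 66.4% G and C, against 48.8% for Adipoq, 54% for Plin1 and 40.8% for Pparg. RefSeq windows of 250 bases before to 50 after a start were found for 7 of the 10 genes, 10 windows in all, with none for Cebpd, Fabp4 and Lpl. Motifs were sought on both strands in the 250 bases before each start only, and the 50 bases after it were not searched. The strict C/EBP motif TTGCGNAA, the DR1 element of PPARγ and RXR (a perfect direct repeat) and the palindromic element of the glucocorticoid receptor occurred there in 0 of the 10 windows, against 0.67%, 0.0335% and 0.0365% of 32851 windows of all genes. The looser TTGCNNAA, which contains the strict motif and was added after these were not found, occurred in 3 of the 10 windows and in 9.56% of all windows. The matches lay 215 and 16 bases upstream of the Pparg start shown, and 187 and 58 bases upstream of the Plin1 start shown. The nearer Plin1 match lies inside the gene as positioned by RefSeq. Another match lay 131 bases upstream of an inner Zfp423 start. A match is a run of letters and no evidence of binding.

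Cebpb (gene number 12608), on chromosome 2 from 167688915 to 167690432, encodes C/EBPβ, an early inducer of Pparg and Cebpa that also serves in inflammation and in macrophages. It moved opposite to its targets between young and old MSCs. Normalized counts were 2964, 3259 and 3343 (lowest, median, highest) in young MSCs, 1104, 1216 and 1606 in old MSCs, and 1316, 1424 and 1657 in rejuvenated old MSCs. Young libraries lay above all others, whereas old and rejuvenated old libraries overlapped, and old replicate 2, at 1606, exceeded 5 of the 6 rejuvenated old libraries. Expression in young MSCs was 2.53-fold that in old MSCs (log2 1.34, SE 0.07, adjusted p = 1.84e-14). After co-culture the log2 fold change against old MSCs was 0.19 (SE 0.07, adjusted p = 0.0357). That call was lost with only these 2 groups in the fit (adjusted p = 0.0633) and without any 1 of 7 libraries (old replicate 1, 3, 5 or 6, or rejuvenated old replicate 4, 5 or 6), and an exact permutation test over the 924 splits of these libraries, chosen after the values were seen, gave p = 0.0671 (two-sided).

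Cebpd (gene number 12609), on chromosome 16 from 15887286 to 15889545, encodes C/EBPδ, the other early factor of the cascade. Normalized counts were 817, 896 and 959 (lowest, median, highest) in young MSCs, 613, 647 and 700 in old MSCs, and 927, 1159.8 and 1406 in rejuvenated old MSCs. No young or rejuvenated old library overlapped the old range, which was the lowest, and rejuvenated old replicate 3, at 927, fell within the young range. Log2 fold changes were 0.46 (SE 0.08, adjusted p = 9.81e-06) for young against old MSCs and 0.83 (SE 0.08, adjusted p = 1.59e-08) for rejuvenated old against old MSCs, the largest rise of the 10 genes after co-culture. A change as large or larger in either direction was seen in 3.76% of tested genes. Cebpd was lower in young than in rejuvenated old MSCs (log2 -0.37, adjusted p = 0.000124). The median of tested genes on chromosome 16 was -0.75 in young against old MSCs and -0.77 in young against rejuvenated old MSCs. With the chromosome median of each library removed, the sign of the latter difference turned to 0.39 (adjusted p = 3.57e-05).

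Klf15 (gene number 66277), on chromosome 6 from 90461043 to 90491803, encodes a Krüppel-like factor that is induced by glucocorticoids and during adipogenesis. Normalized counts were 19.2, 31.8 and 41.3 (lowest, median, highest) in young MSCs, 167, 195 and 231 in old MSCs, and 271, 303 and 343 in rejuvenated old MSCs. The 3 groups did not overlap. Young against old MSCs gave a log2 fold change of -2.63 (SE 0.14, adjusted p = 1.85e-14), and rejuvenated old against old MSCs gave 0.64 (SE 0.14, adjusted p = 0.000671), or 1.55-fold.

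Zfp423 (gene number 94187), on chromosome 8 from 87661810 to 87962053, encodes a zinc finger protein that commits mesenchymal cells to the preadipocyte state. Normalized counts were 419, 459 and 485 (lowest, median, highest) in young MSCs, 1236, 1252 and 1317 in old MSCs, and 1163, 1298 and 1354 in rejuvenated old MSCs. The range of rejuvenated old MSCs enclosed that of old MSCs. Expression was 2.76-fold lower in young than in old MSCs (log2 -1.46, adjusted p = 1.87e-19). For rejuvenated old against old MSCs the log2 fold change was 0.02, with a 95% confidence interval from -0.07 to 0.11 (adjusted p = 0.728).

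The genes of the C/EBP family and Pparg overlap other genes on the opposite strand in the GENCODE annotation of GRCm38, and the strand setting of the authors' counting is not given in the sources used here. In that annotation Cebpd is longer than the RefSeq gene of 2260 bases whose position is given above, and it shares 1808 bases with Spidr, of which 322 lie within the RefSeq gene. Spidr had mean normalized counts of 451 (young), 573 (old) and 639 (rejuvenated old). Cebpb shares 908 bases with Tmem189, which had 1169, 1411 and 1389. Cebpa shares 313 bases with Gm45091 and Pparg 13176 bases with Gm44079. These are bases of whole gene spans with introns, and the overlap of exons was not computed. The longest Pparg transcript has 2125 bases. Without strand, reads from exons shared by such a pair could not be told apart.

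Fabp4 (gene number 11770), on chromosome 3 from 10204342 to 10208616, encodes a cytosolic fatty acid carrier that is a target of PPARγ in adipocytes and is also made by macrophages and endothelial cells. Normalized counts were 52.5, 64.9 and 76.0 (lowest, median, highest) in young MSCs, 1922, 2074 and 2263 in old MSCs, and 2543, 2908 and 3418 in rejuvenated old MSCs. No group overlapped another. The means were 65.6 ± 8.27 (SD, n = 6), 2078 ± 117 (SD, n = 6) and 2915 ± 320 (SD, n = 6). The log2 fold change was -4.97 (SE 0.08, adjusted p = 2.26e-24) for young against old MSCs and 0.48 (SE 0.08, adjusted p = 2.57e-05) for rejuvenated old against old MSCs.

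Lpl (gene number 16956), on chromosome 8 from 68880555 to 68906932, encodes lipoprotein lipase, the secreted enzyme that frees fatty acids from circulating triglyceride and is likewise made by macrophages. Normalized counts were 16309, 16887 and 18738 (lowest, median, highest) in young MSCs, 31385, 32977 and 34180 in old MSCs, and 35540, 39896 and 44992 in rejuvenated old MSCs. The 3 groups did not overlap, with rejuvenated old MSCs highest. Young MSCs had 1.91-fold less than old MSCs (log2 -0.94, SE 0.05, adjusted p = 2.69e-14), and rejuvenated old MSCs had 1.23-fold more (log2 0.30, SE 0.05, adjusted p = 5.00e-05).

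Plin1 (gene number 103968), on chromosome 7 from 79721164 to 79732904, encodes perilipin 1, the coat protein of the lipid droplet in mature adipocytes. No read was found in any of the 6 young libraries. Normalized counts were 21.8, 27.6 and 39.8 (lowest, median, highest) in old MSCs and 10.3, 20.1 and 23.6 in rejuvenated old MSCs. Against a floor of 3 reads in each young library, expression was at least 9.25-fold higher in old MSCs and at least 5.70-fold higher in rejuvenated old MSCs. Old replicate 4, at 21.8, was the only old library below the highest rejuvenated old library. Co-cultured old MSCs had less Plin1 than old MSCs (log2 -0.70, SE 0.23, adjusted p = 0.0194), at 17.97 ± 5.07 against 29.2 ± 6.22 (SD, n = 6 each). The call rests on 10 to 37 reads per library and was lost without old replicate 1 (adjusted p = 0.0533) or without rejuvenated old replicate 1 (adjusted p = 0.0532), while a two-sided exact permutation test, chosen after the values were seen, gave p = 0.00433.

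Adipoq (gene number 11450), on chromosome 16 from 23146536 to 23157968, encodes adiponectin, the hormone secreted by adipocytes and transcribed in adipogenic stromal cells of marrow. Young libraries held 0 to 3 reads of it. Normalized counts were 1079, 1163 and 1246 (lowest, median, highest) in old MSCs and 561, 767 and 922 in rejuvenated old MSCs. Expression was at least 367-fold higher in old MSCs and at least 241-fold higher in rejuvenated old MSCs than the floor of 3 reads in each young library. Every rejuvenated old library lay below every old library, with 3 of them (replicates 1, 2 and 3) at 561 to 648 and 3 (replicates 4, 5 and 6) at 886 to 922. The mean was 760 ± 161 (SD, n = 6) against 1159 ± 63.6 (SD, n = 6). Even so, the log2 fold change of -0.63 for rejuvenated old against old MSCs was not called (SE 0.29, adjusted p = 0.0816). The fit shares 1 spread among the groups, and the SD of the log2 values was 0.96 in young MSCs, where counts were 0 to 3, against 0.08 in old and 0.31 in rejuvenated old MSCs. The adjusted p was 0.0442 without young replicate 3 and 0.0436 without young replicate 4. With only the old and rejuvenated old libraries in the fit it was 0.00014, and a two-sided exact permutation test over their 924 splits, chosen after the values were seen, gave p = 0.00216, the smallest it can give.

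**Figure D2:**
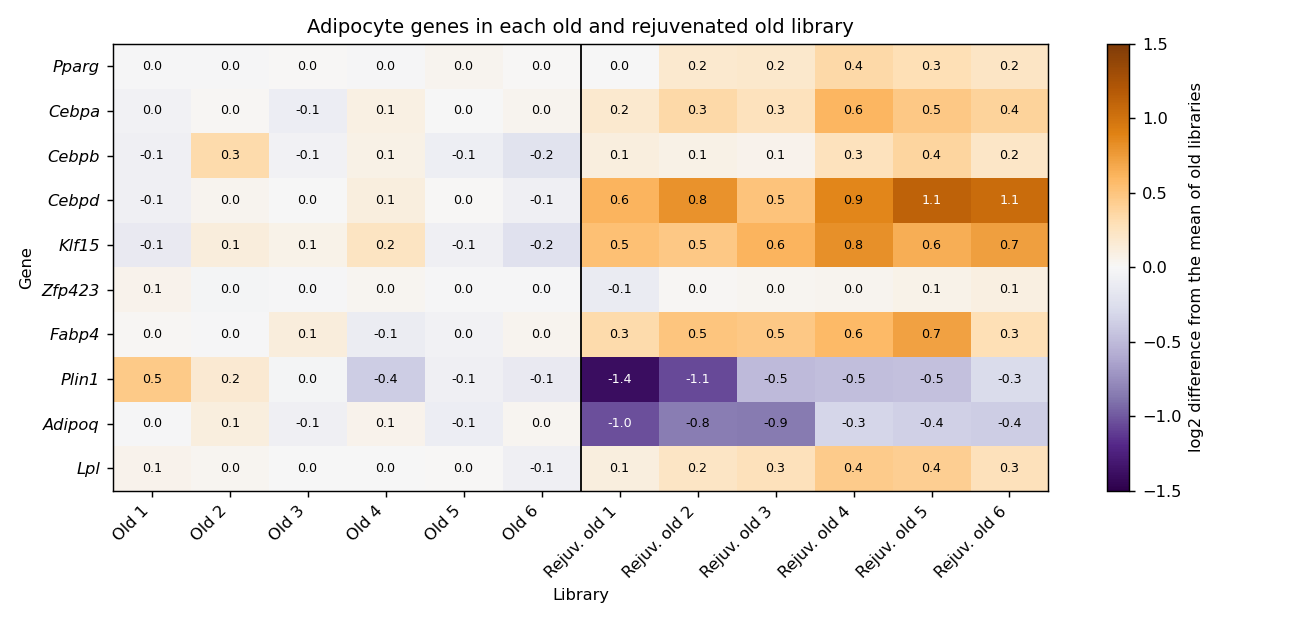
Difference of log2(normalized count + 1) from the mean of the old libraries (colour and printed value) for each gene (rows) in each old and rejuvenated old library (columns). Cebpb, Cebpd, Klf15, Fabp4, Cebpa and Lpl are positive and Adipoq and Plin1 negative in all 6 rejuvenated old libraries, and rejuvenated old replicate 1 has the lowest Plin1 and Adipoq.

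Of the 6 regulators, then, 4 were lower and 2 higher in young than in old MSCs, and of the 4 markers all were lower. After co-culture 5 regulators were called higher and 1 was not called, while among the markers 2 were called higher, 1 was called lower and 1 was not called. In young against rejuvenated old MSCs 9 of the 10 genes were lower and only Cebpb was higher, with groups that did not overlap for 9 of the 10. Of all genes tested, 85.6% were called in that comparison (44.1% lower and 41.5% higher) and 70.5% did not overlap. The fold differences in it were 36.3 for Cebpa, 43.9 for Fabp4, 9.60 for Klf15, 2.80 for Zfp423, 2.35 for Lpl and, in the other direction, 2.22 for Cebpb.

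**Figure D3:**
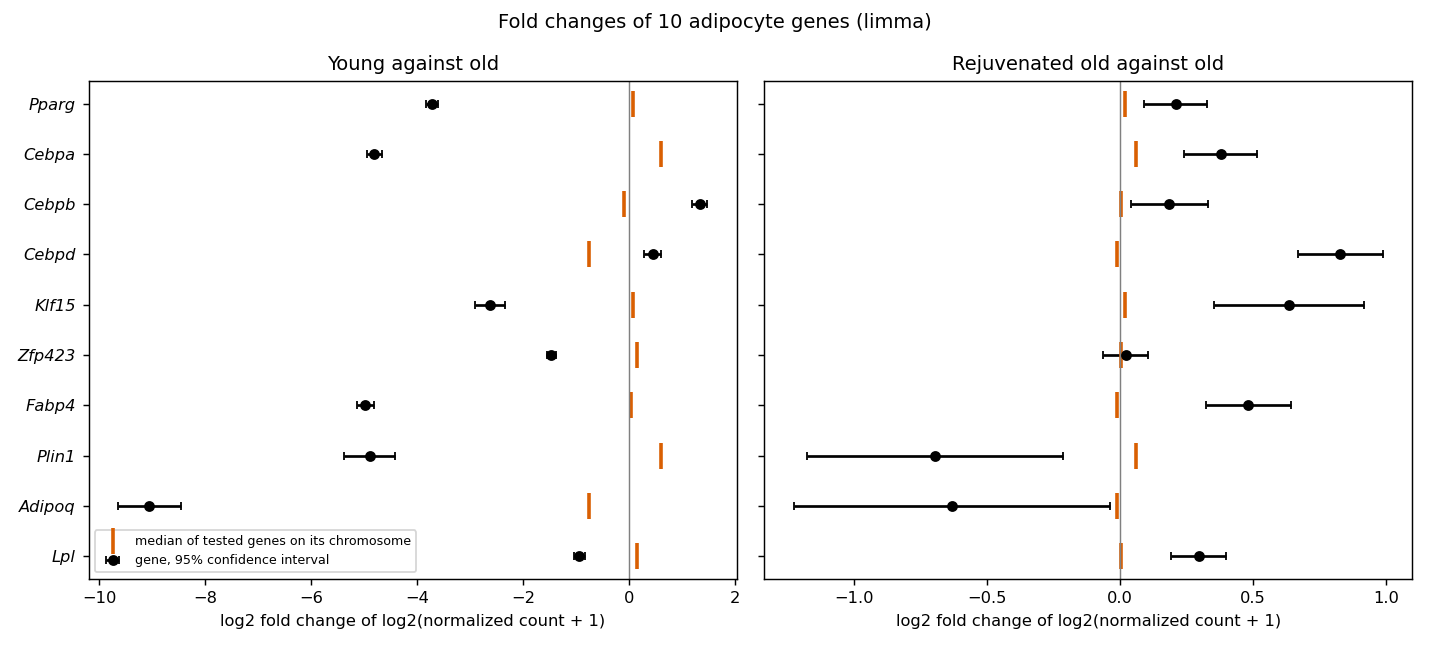
Log2 fold change of each gene with its 95% confidence interval (black), beside the median of all tested genes on its chromosome (orange), for young against old (left) and rejuvenated old against old MSCs (right), on different horizontal scales. On the left only Cebpb and Cebpd lie above 0, and the values of Plin1 and Adipoq depend on the pseudocount because young MSCs are at the floor; on the right the interval of Zfp423 includes 0.

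Whole chromosomes differed in their median between young and old MSCs, and the values for those that carry the 10 genes stand beside their fold changes. In young against old MSCs the chromosome medians were 0.08 for chromosome 6, 0.04 for chromosome 3, 0.15 for chromosome 8 and -0.10 for chromosome 2, beside the 0.61 of chromosome 7 and the -0.75 of chromosome 16. For rejuvenated old against old MSCs the 6 chromosomes concerned had medians between -0.01 and 0.06. Relative to their chromosomes, Cebpa differed by -5.41 and Cebpd by 1.21 in young against old MSCs.

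Per kilobase of the longest GENCODE transcript, the order of the genes changed between the groups. Lpl was the highest in each, at 4192 (young), 8012 (old) and 9862 (rejuvenated old) normalized counts per kilobase. In young MSCs it was followed by Cebpb (2137), Cebpd (238), Pparg (154), Zfp423 (93.5), Fabp4 (73.2), Cebpa (54.9) and Klf15 (12.7), with Adipoq and Plin1 at the floor. Of these neighbours, Fabp4 and Cebpa overlapped in their libraries, as did Adipoq and Plin1 at the floor. In old MSCs the order below Lpl was Fabp4 (2319), Pparg (2009), Cebpa (1538), Adipoq (897), Cebpb (850), Zfp423 (258), Cebpd (173), Klf15 (79.0) and Plin1 (10.4), and only Adipoq and Cebpb overlapped. The early factor Cebpb thus stood above Pparg per length in young MSCs and below it in old MSCs. In rejuvenated old MSCs Pparg (2329) and Cebpa (2007) overlapped, as did Cebpd (311) and Zfp423 (262), while Adipoq (588) lay below Cebpb (963) without overlap. With the median transcript length in place of the longest, Pparg stood above Fabp4 in old MSCs. The place of Cebpd depends on the gene model, since its GENCODE transcript of 3746 bases is longer than the RefSeq gene. With the 2260 bases of the latter, chosen after the values were seen, Cebpd had 394 (young), 287 (old) and 515 (rejuvenated old) normalized counts per kilobase. It then stood above Zfp423 in old MSCs without overlap, and in rejuvenated old MSCs it overlapped Adipoq and no longer Zfp423.

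**Figure D4:**
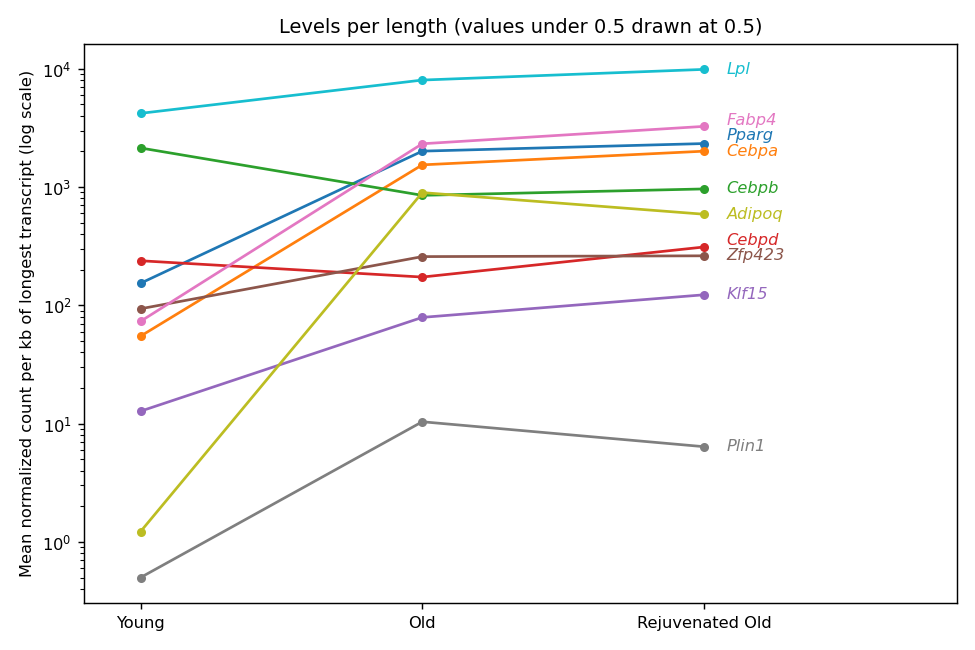
Mean normalized count per kilobase of the longest transcript (log scale) of each gene in young, old and rejuvenated old MSCs, with lines joining the means of 1 gene. Cebpb falls from the next place after Lpl in young MSCs to below Adipoq in old MSCs, and Plin1, at 0 in young MSCs, is drawn at 0.5.

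The wider adipogenic network was described with lists of genes that leave out these 10 and of which a few share a gene. Of all genes tested, 85.7% were called in young against old MSCs, 41.6% higher and 44.1% lower, with a median of -0.02. In rejuvenated old against old MSCs 41.6% were called, 21.0% higher and 20.6% lower, with a median of 0.01. The counts of each list below are to be read beside these shares, and no list was tested as a set. Of 24 activators and coactivators of adipogenesis, 8 were higher, 15 lower and 1 not called in young against old MSCs, with a median log2 fold change of -0.40. Ebf1 and Ebf2, early B-cell factors that act upstream of Pparg, were lower in young MSCs (log2 -4.57, adjusted p = 7.90e-23, and log2 -4.87, adjusted p = 2.33e-17), whereas the Krüppel-like factor Klf5 was higher, with means of 186 in young and 1.43 in old MSCs (adjusted p = 1.42e-10). After co-culture, against old MSCs, 4 were higher, 8 lower and 12 not called, with a median of -0.07. Klf9, a glucocorticoid-induced activator, fell by 1.02 (adjusted p = 7.82e-09) and Egr2, an early inducer of Cebpb, fell by 1.00 (adjusted p = 1.20e-06).

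Of 21 inhibitors of adipogenesis, 12 were higher, 7 lower and 2 not called in young against old MSCs, with a median of 0.38. The preadipocyte factor Dlk1, which blocks differentiation, had a mean of 12122 normalized counts in young and 11.4 in old MSCs (adjusted p = 1.11e-15). Trib3, a pseudokinase that restrains Akt and PPARγ, was higher by 3.44 (adjusted p = 4.00e-15), while Wnt5a, a Wnt ligand, was lower (log2 -6.48, adjusted p = 1.57e-24). Among the same 21, in co-cultured against old MSCs, 6 were higher, 8 lower and 7 not called, with a median of -0.13. Trib3 rose by 1.81 (adjusted p = 1.10e-08), and Dlk1 by 1.56 (adjusted p = 0.00745), or by 0.94 (adjusted p = 7.33e-05) without rejuvenated old replicate 1, which had the 298 normalized counts given above.

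Of the other members of the C/EBP, PPAR, FABP and perilipin families, 10 of 13 were expressed above the limit for testing. In young against old MSCs 3 were higher, 5 lower and 2 not called, with a median of -0.39. The droplet coat proteins Plin4 and Plin2 were lower in young MSCs (log2 -2.28, adjusted p = 2.15e-21, and log2 -1.76, adjusted p = 1.07e-21), as was the fatty acid carrier Fabp7 (log2 -3.81, adjusted p = 6.55e-12). Between rejuvenated old and old MSCs 3 were higher after co-culture, 5 lower and 2 not called, with a median of -0.13. Fabp5, a relative of Fabp4 that is also made in fat, rose by 0.86 (adjusted p = 3.44e-07) and Fabp3 fell by 0.81 (adjusted p = 0.000331).

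Of 28 genes of lipid storage and of secreted adipocyte products, 19 were tested. In young against old MSCs 4 were higher, 11 lower and 4 not called (median -0.25). The fatty acid translocase Cd36 was at the floor in young MSCs and at least 84.6-fold higher in old MSCs, and the fat cell adrenergic receptor Adrb3 and the glycerol channel Aqp7 were lower in young MSCs (log2 -4.34, adjusted p = 1.34e-10, and log2 -3.91, adjusted p = 9.03e-13). After co-culture 3 of them were higher than in old MSCs, 7 lower and 9 not called (median -0.10), with the retinol carrier Rbp4 higher by 2.21 (adjusted p = 1.99e-08) and Adrb3 by 1.81 (adjusted p = 0.00036). Among those called lower, Scd1 fell by 0.75 (adjusted p = 4.035e-12). The Cd36 mean was 134 in rejuvenated old against 267 in old MSCs. Of 14 proteins that assemble, anchor or bind lipoprotein lipase and adiponectin, 9 were tested, and 4 were higher and 5 lower in young against old MSCs (median -0.21). The endothelial anchor of lipoprotein lipase, Gpihbp1, had 0 reads in all 18 libraries. After co-culture 3 of these 9 were higher, 2 lower and 4 not called (median 0.04). Ero1a, an oxidase of the endoplasmic reticulum that aids adiponectin secretion, was higher in young (1.52, adjusted p = 3.98e-16) and in rejuvenated old (1.15, adjusted p = 3.68e-12) than in old MSCs. Cdh13, the T-cadherin that binds adiponectin, was higher than in old MSCs by 1.47 (adjusted p = 2.13e-10) in young MSCs and lower (log2 -1.08, adjusted p = 4.73e-07) in rejuvenated old MSCs, and the receptor Adipor1 was lower in young MSCs (log2 -1.16, adjusted p = 1.58e-17).

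Of 14 genes of the adipogenic stromal lineage of marrow, 3 were higher and 11 lower in young against old MSCs (median -1.81), and 9 were higher, 3 lower and 2 not called in rejuvenated old against old MSCs (median 0.22). Cxcl12, the chemokine of the blood stem cell niche, was lower in young MSCs (log2 -4.42, adjusted p = 8.53e-27), and Esm1, a secreted proteoglycan, was at the floor in young MSCs, at least 72.0-fold higher in old MSCs and higher again by 1.58 (adjusted p = 9.69e-06) in rejuvenated old MSCs. Igfbp5, which binds insulin-like growth factors, rose by 0.95 (adjusted p = 6.38e-10) after co-culture. Of 11 glucocorticoid targets, 6 were higher, 4 lower and 1 not called in young against old MSCs (median 0.66). Pdk4, a kinase that limits glucose oxidation, was lower in young MSCs (log2 -3.87, adjusted p = 4.17e-26), whereas Lcn2 and Zbtb16 were at the floor in old MSCs and at least 13.9-fold and 13.1-fold higher in young MSCs. Against old MSCs, 1 was higher after co-culture, 5 lower and 5 not called (median -0.20), the higher being the metallothionein Mt2, by 1.01 (adjusted p = 7.92e-09).

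**Figure D5:**
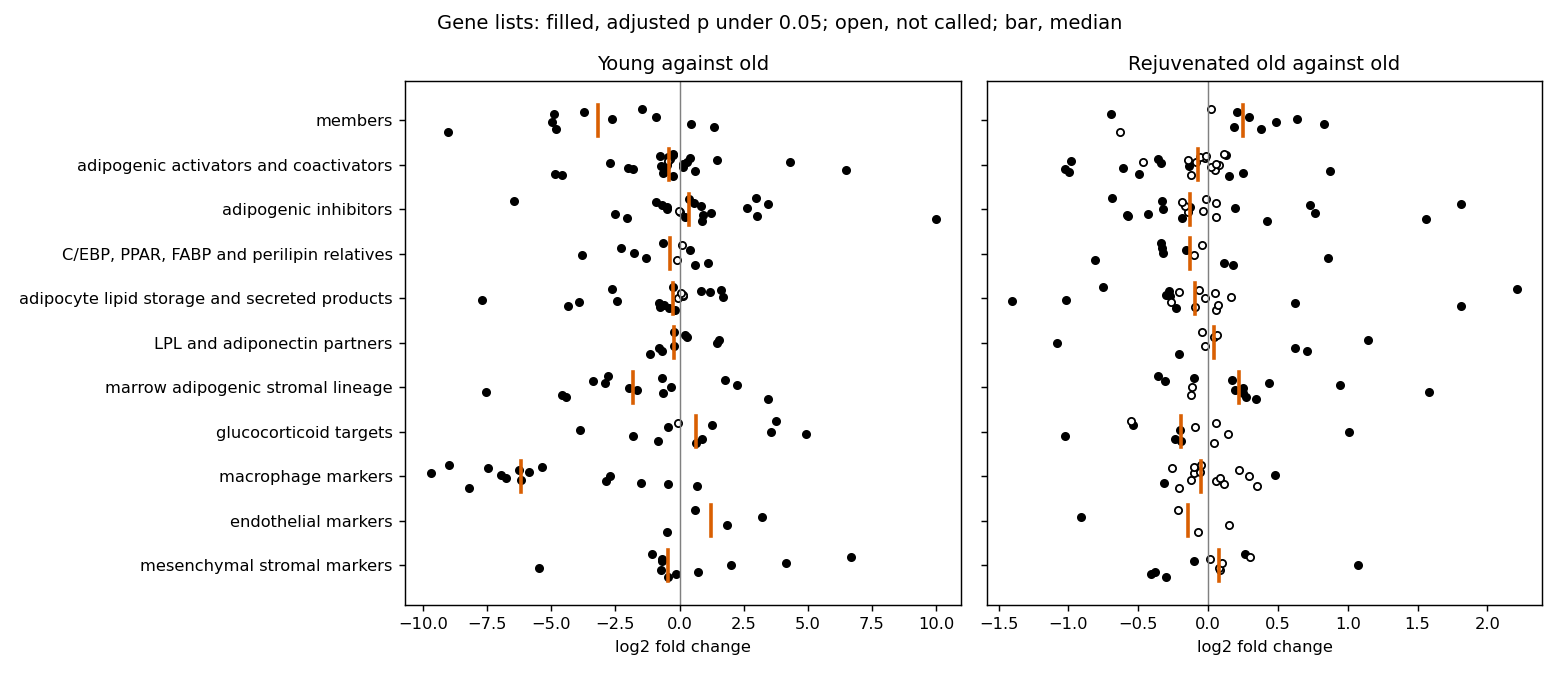
Log2 fold change of each tested gene (points, filled where adjusted p is under 0.05) of the 10 adipocyte genes (top row) and of the other lists, for young against old (left) and rejuvenated old against old MSCs (right), with list medians in orange. On the left the medians of the 10 adipocyte genes (-3.17), of the marrow adipogenic stromal lineage (-1.81) and of the macrophage markers (-6.18) lie lowest, and on the right the macrophage median is -0.05.

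The 15 macrophage markers had a median log2 fold change of -6.18 in young against old MSCs. Their summed normalized counts ran from 15355 to 18607 for rejuvenated old MSCs, and 5 of the 15, among them Ptprc and Adgre1 with 0 reads, were at the floor in young MSCs and none in the other groups. Laptm5, Tyrobp and Adgre1 were at least 365-fold, 207.5-fold and 93.8-fold higher in old MSCs. After co-culture the sums overlapped those of old MSCs, and 1 macrophage marker was higher (Itgam, 0.48, adjusted p = 0.00548), 1 lower (Cd68, -0.32, adjusted p = 0.000102) and 13 not called (median -0.05). Of 12 endothelial markers 4 were tested, of which 3 were higher and 1 lower in young against old MSCs and 1 was lower and 3 not called in rejuvenated old against old MSCs. The sums were 275 to 366, 210 to 240 and 190 to 231 in young, old and rejuvenated old MSCs, with 5, 5 and 6 of the 12 at the floor. The vascular growth factor receptor Kdr was higher than in old MSCs by 3.23 (adjusted p = 1.12e-09) in young MSCs and lower (log2 -0.91, adjusted p = 0.02) in rejuvenated old MSCs, a call that was lost without old replicate 2 (adjusted p = 0.0611) or rejuvenated old replicate 6 (adjusted p = 0.0515). Esam and Tek were also higher in young than in old MSCs, by 1.87 and 0.61, whereas Egfl7 was lower (log2 -0.48, adjusted p = 6.40e-06), at 133.7 against 186.1.

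The label of MSC was set beside 11 mesenchymal stromal markers, whose sums were about 409800 to 434850 (young), 440370 to 465860 (old) and 416110 to 435010 (rejuvenated old). These sums come mainly from the abundant Col1a1, Col1a2, Col3a1 and Vim and say little of the surface markers. Of the 11 markers, 4 were higher and 7 lower in young against old MSCs (median -0.46), and 2 higher, 4 lower and 5 not called in rejuvenated old against old MSCs (median 0.08). Thy1, a stromal surface marker, was at the floor in old MSCs and at least 65.8-fold higher in young MSCs, Nt5e was higher in young MSCs by 4.15 (adjusted p = 3.60e-17), and Eng was lower (log2 -5.48, adjusted p = 1.02e-29). Ly6a, which encodes the stem cell antigen SCA-1, rose by 1.07 (adjusted p = 1.67e-08) and the collagen Col1a1 fell by 0.41 (adjusted p = 3.05e-07) after co-culture. None of the groups held the full set of defining transcripts of mature adipocytes. Of 6 such genes (Adipoq, Plin1, Cidec, Lep, Retn and Cfd), 5 were at the floor in young MSCs, 2 in old MSCs and 1 in rejuvenated old MSCs, and Lep, the adipokine leptin, had 0 reads in all 18 libraries. The 6 were picked by hand and include Adipoq and Plin1 of the 10 genes. Retn, close to the floor, went the other way, with means of 4.56 in young and 1.29 in old MSCs. Of the 19 storage genes tested above, 11 were lower in young than in old MSCs. The 4 that were higher were Pnpla2 (means of 2170 and 703), Lipe (237 and 105), Mgll (245 and 137) and Dgat2 (485 and 148). Cidec, which fuses lipid droplets, had 0 reads in young MSCs, 6.36 to 21.7 normalized counts in old MSCs and 7.21 to 16.4 in rejuvenated old MSCs, whose ranges overlapped.

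The level of Pparg over the 18 libraries was followed most closely by Dpep1, Prkg1 and Cebpa (each with Pearson r = 0.999), and that of Cebpa by Dpep1, Atoh8 and Cxcl12. For Fabp4 these genes were Ptp4a3, Dpep1 and Lasp1, and for Lpl they were Lrpap1, Gpx8 and S100a11. Because young MSCs stand apart from both other groups in most genes, 2669 genes had r above 0.95 with Pparg, and these values describe mainly the difference between young and other libraries. After the group means were removed, the genes that varied most like Pparg among libraries of the same group were Rnaseh2b (r = 0.894), Apoo (r = 0.829) and Esm1 (r = 0.818). For Cebpa they were Dpep1 (r = 0.863), Lbp (r = 0.850) and Cish (r = 0.836), and for Fabp4 they were Mettl23, Ssu72 and Pam16 (r = 0.828 to 0.821). For Lpl they were Paip2 (r = 0.954), Gpx8 (r = 0.937) and Cyb5a (r = 0.900). These are the highest values picked from up to 14353 genes over 18 libraries, and the r that chance alone gives was not computed. Whether the libraries of a group were processed together is not given in the sources used here, and no test was made of these correlations.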

How the data were processed

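RNA of 18 MSC cultures was sequenced from stranded mRNA libraries. Per the labels, the authors used HISAT2, StringTie, featureCounts and DESeq2 with mm10 (versions not given in the sources used here). The deposited signal is a gene's reads over the size factor of its library, not pooled. Every value was a whole multiple of 1 step per library, so 100% of reads were recovered within 0.01 read. Genes were named by Entrez number, and 25271 of 27179 matched RefSeq.

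Tests used limma 3.58.1 (R 4.3.3) on log2(value + 1), pseudocount 1, with a trended prior, 3 group means and a mean of at least 10. edgeR 4.0.16 and DESeq2 1.42.0 on the recovered reads were alternatives. Fold changes on this scale understate those of low genes. Groups with at most 3 reads in every library were at the floor, and folds against them are lower bounds that cover counting error only. The fit was run on simulated counts with the same dispersion in every group and no difference between young and old. Unequal spread between groups, as for Adipoq, was not covered. The 10 genes, the lists (written by hand from general knowledge), the tests and the alternatives were chosen with earlier results of these data known, so no list is independent evidence.

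Named were all 10 genes and, per list, the up to 3 called genes with the largest change in young against old and the up to 2 in rejuvenated old against old MSCs. Other genes named (Gpihbp1, Ptprc, Aif1, Lyz2, Cidec, Lep, Egfl7, Pnpla2, Lipe, Mgll, Dgat2, Scd1, Cd36 after co-culture, Col1a2, Col3a1, Vim and the overlapping genes) were chosen after their values were seen. Likeness was Pearson r over 18 libraries for Pparg, Cebpa, Fabp4 and Lpl. Ero1a was listed under an older symbol. Identity between the C/EBP proteins was not analysed here.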

Additional observations from a re-analysis of the deposited data

Results flagged for a closer look

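Pparg in young MSCs was flagged because replicate 3, at 391.1 normalized counts, lay apart from the other 5 young libraries (295 to 327). The gap to the nearest was 0.664 of the range of the group, above the 95% critical value of Dixon's test for 6 libraries. Chance flags about 1 in 20 groups. Without this library young MSCs stayed far below old MSCs.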

How the results depend on the processing

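Of 987 recomputed fold changes (30 differences of the 10 genes under 33 alternatives, except Plin1 at a mean of at least 50, where it is not tested), 954 kept their call and 33 did not, 1 of them reversed: Cebpd in young against rejuvenated old MSCs, 0.39 with chromosome medians removed. The counts of the 10 genes called in rejuvenated old against old MSCs ran from 6 to 9 with 1 library left out (young against old, 10 in each).

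Adipoq in rejuvenated old against old MSCs passed with a pseudocount of 10 (adjusted p = 7.67e-05), with 2 groups fitted (0.00014), with edgeR (2.52e-05) and with DESeq2 (1.5e-05), over a range of adjusted p from 1.5e-05 to 0.211. Cebpb lost its call in 13 alternatives and Plin1 in 4 (adjusted p up to 0.0982 and 0.0533).

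With a limit of 1 on the absolute log2 fold change, which left 31.9% of all genes tested called in young against old and 2.34% in rejuvenated old against old MSCs, genes called in young against old and then in rejuvenated old against old MSCs were 8 and 1 activators, 9 and 2 inhibitors, 5 and 0 family relatives, 8 and 4 storage genes, 3 and 2 partners, 6 and 2 glucocorticoid targets, 2 and 0 endothelial and 5 and 1 stromal markers. In rejuvenated old against old MSCs the limit left 0 of the 10 adipocyte genes, 1 marrow lineage gene and 0 macrophage markers. Macrophage markers called there numbered 5 with 2 groups fitted, 4 with edgeR and 5 with DESeq2. Endothelial markers called in young against old MSCs were 8 without a filter and 1 at a mean of at least 50, and in rejuvenated old against old MSCs 0 at an adjusted p under 0.01, with a pseudocount of 10, at a mean of at least 50 and with 2 groups fitted, and 0 to 1 with 1 library left out (0 without old replicate 2 or rejuvenated old replicate 6). The causes were not tested.

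Libraries with the same replicate number did not deviate together over all tested genes (correlations from -0.152 to 0.0736). The labels give no pairing, and one that acts on few genes would not show in these correlations. With the replicate number as a block, 10 of the adipocyte genes were called in young against old and 7 in rejuvenated old against old MSCs, where Cebpb lost its call (adjusted p = 0.053).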
